A study of Mus musculus with 4 samples.

Results

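The miR-143 and miR-145 cluster was followed across 4 microarrays of mouse small intestine through 4 probes, mmu-miR-143, mmu-miR-143*, mmu-miR-145 and mmu-miR-145*, written below without the mouse prefix. They were chosen by name and are 4 of the 1096 mouse miRNA probes of the array. The intestine came from Tlr3+/+ mice and from Tlr3-/- mice, which lack Toll-like receptor 3, a sensor of RNA duplexes. Each genotype was sampled non-treated at 0 hr and 6 hr after 10 Gy of total body gamma-irradiation, with 1 array for each of the 4 groups and RNA pooled from 3 mice on each array. No group had a replicate, so no ratio of 2 arrays was tested, and precision is limited by there being 4 arrays. The labels give no age, sex or strain. A non-treated array at 6 hr is lacking, and the effects of irradiation and of time cannot be told apart. The deposited array names have a common stem at 0 hr and other stems at 6 hr, and no label says whether a stem marks a slide or another batch, so a batch effect could not be checked. Tlr3 mRNA was not measured, and the genotype labels could not be checked.

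Both miRNAs are cut from 1 primary transcript that smooth muscle cells make in abundance. The hairpin of each gives a guide arm, which is loaded into the silencing complex, and a passenger arm, which is mostly degraded and which the array names with an asterisk (star arm). In the mouse gut the cluster is known from smooth muscle and subepithelial mesenchyme rather than epithelium, and mice without it repair injured epithelium poorly. In smooth muscle, miR-145 is known to repress Klf4 and Klf5, transcription factors linked to the proliferating state, and miR-143 to repress Elk1. In human cells with damaged DNA, p53 is known to aid the cutting of primary miR-143, miR-145 and miR-16-1, which makes irradiation a natural setting in which to look at them. In the mouse reference assembly GRCm38.p6, Mir143 and Mir145a (an older name of which is Mir145) are neighbours on chromosome 18, and both lie inside the long non-coding RNA gene Carmn, also called Mir143hg.

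Before any scaling, the log2 ratio of 6 hr over 0 hr of miR-143 less that of miR-145 was -0.20 in Tlr3+/+ intestine and -0.35 in Tlr3-/- intestine. The first lies within the technical SD of 0.209 given below and the second beyond it, with 1 spot per array and 1 array per group. In signal before any scaling, miR-143 was lower at 6 hr than at 0 hr in both genotypes, while miR-145 was slightly higher or level. The raw intensity of miR-143, in scanner units, was 1389 at 0 hr and 1289 at 6 hr in Tlr3+/+ mice, and 1652 at 0 hr and 1303 at 6 hr in Tlr3-/- mice. Its highest reading was that of non-treated Tlr3-/- intestine, and both irradiated arrays lay below both non-treated arrays. That of miR-145 was 1234 at 0 hr and 1321 at 6 hr in Tlr3+/+ mice, and 1542 at 0 hr and 1552 at 6 hr in Tlr3-/- mice. For miR-145 the split in raw readings ran by genotype instead, with both Tlr3-/- arrays above both Tlr3+/+ arrays. By the quantile-normalized values used below, Tlr3-/- at 6 hr and Tlr3+/+ at 0 hr were equal, both at 10.54 on the log2 scale. A probe's brightness depends on its own sequence, so levels were compared between arrays and not between probes.

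**Figure D1:**
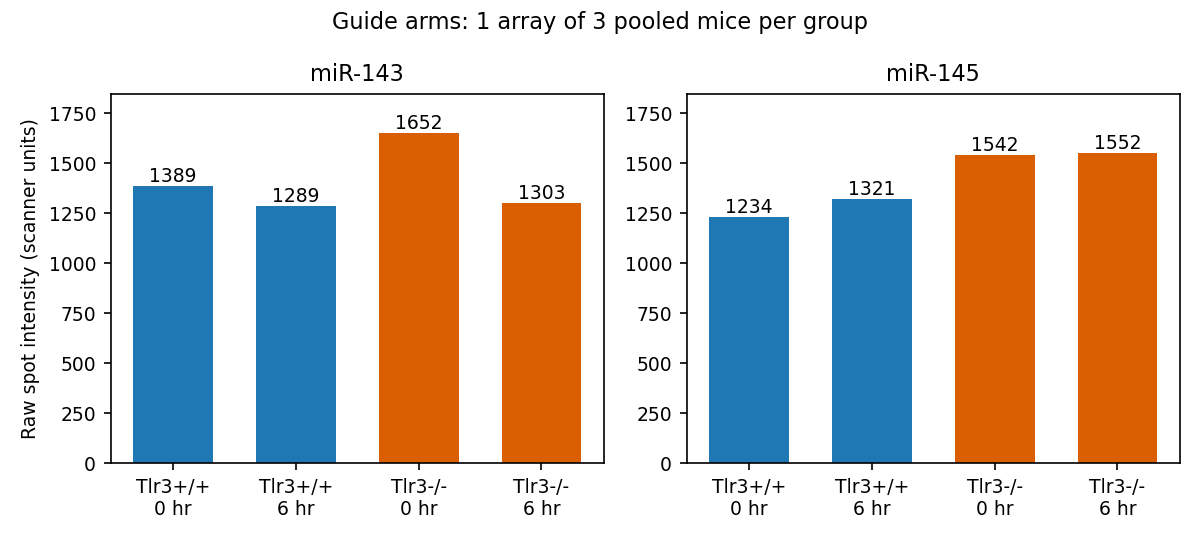
Raw spot intensity in scanner units (y axis, from 0) of the miR-143 and miR-145 probes on each of the 4 arrays, 1 bar per array, blue for Tlr3+/+ and orange for Tlr3-/-. The miR-143 bars go from 1389 to 1289 and from 1652 to 1303 with irradiation, and those of miR-145 from 1234 to 1321 and from 1542 to 1552.

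These guide-arm readings were 44.6 to 62.4 times the detection threshold for miR-143 and 47.9 to 58.3 times for miR-145, the threshold being the mean of the blank spots plus 2 SD. Each miRNA has 1 spot per array. The only repeated bright spots were those of 2 spike controls, with 8 spots each, whose log2 signals varied within arrays with an SD of 0.105. For the log2 ratio of 2 arrays this gives a technical SD of 0.148, and for the difference of 2 such ratios one of 0.209. It covers neither the spread between mice nor that between arrays, and a value beyond 1 such SD is not thereby told from noise.

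After background correction and quantile normalization, the setting used for all main values here, miR-143 had a log2 ratio of 6 hr over 0 hr of -0.80 in Tlr3+/+ intestine and -0.80 in Tlr3-/- intestine. It was the only one of the 4 members at least 1.5-fold lower in either genotype. Of all mouse miRNAs detected on both arrays, 3 of 680 (0.441%) passed that limit on the low side in Tlr3+/+ and 6 of 625 (0.96%) in Tlr3-/-. On the high side, 20 of 680 (2.94%) and 9 of 625 (1.44%) passed it, none of them a member. For miR-145 the main log2 ratios were -0.33 in Tlr3+/+ and -0.27 in Tlr3-/-.

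The ratios depended on how the arrays were scaled to each other. In the 5 other scalings, miR-143 had log2 ratios of -0.35 to -0.14 in Tlr3+/+ and of -0.51 to -0.20 in Tlr3-/-, below 0 each time and short of 1.5-fold each time. Those of miR-145 ran from -0.14 to 0.057 in Tlr3+/+ and from -0.15 to 0.14 in Tlr3-/-. In Tlr3+/+ intestine, 2 of the 5 scalings put miR-145 below 0 and 3 above it. In Tlr3-/- intestine, 4 put it below 0 and 1 above it. With no scaling at all, the ratios of miR-143 were -0.11 in Tlr3+/+ and -0.34 in Tlr3-/-, and those of miR-145 were 0.096 and 0.0066.

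Among the 5, median scaling, which lines up the middle of the probes seen on every array, gave -0.14 for miR-143 and 0.057 for miR-145 in Tlr3+/+, and -0.35 and -0.0088 in Tlr3-/-. The authors' normalized values gave -0.35 and -0.14 in Tlr3+/+, and -0.51 and -0.15 in Tlr3-/-. These values shift all miRNAs: the median log2 ratio of the 573 mouse miRNAs detected on all 4 arrays was -0.16 in Tlr3+/+ and -0.033 in Tlr3-/-. Scaling to the spike controls set that median to -0.033 in Tlr3+/+ and 0.15 in Tlr3-/-, which is where miR-145 in Tlr3-/- reached its highest value, 0.14. Measured against the median of the same scaling, that value of miR-145 was near 0.

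**Figure D2:**
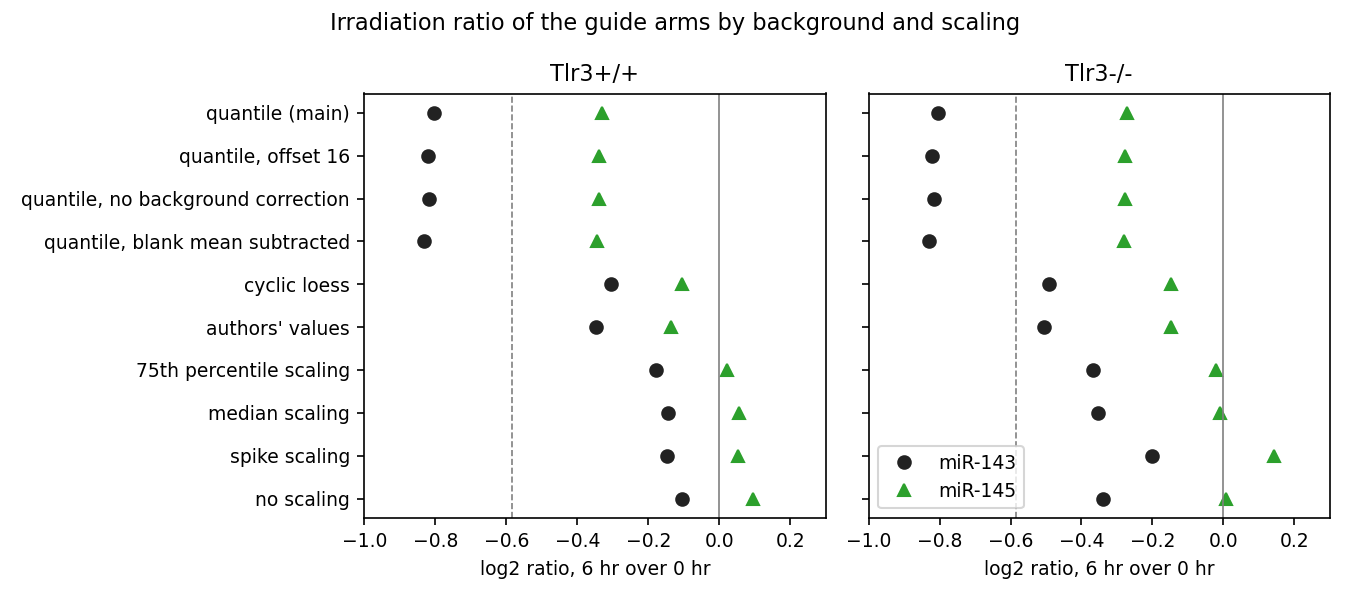
The log2 ratio of 6 hr over 0 hr (x axis) of miR-143 (circles) and miR-145 (triangles) under each background and scaling setting (y axis), 1 panel per genotype, with a solid line at 0 and a dashed line at 1.5-fold lower. The 4 quantile settings put miR-143 near -0.80 in both genotypes, and every other setting puts it to the right of the dashed line, with miR-145 to the right of miR-143 in each.

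The quantile value of miR-143 came from its place in the order of the probes. Quantile normalization gives every probe the reference value of its rank, and miR-143 ranked 8 at 0 hr and 14 at 6 hr, counted from the brightest miRNA probe, in both genotypes. The reference values of those ranks differ by 0.80 on the log2 scale, so the main ratios of the 2 genotypes were equal by construction, although the raw signal went from 1389 to 1289 in one and from 1652 to 1303 in the other. In each genotype 6 probes passed miR-143 between 0 hr and 6 hr, all 6 of them with a higher raw intensity at 6 hr, and 5 of them were the same in both genotypes. The probe of miR-145 went from rank 11 to 13 in Tlr3+/+, passed by 4 probes and itself passing 2. In Tlr3-/- it went from rank 9 to 11, passed by 3 and itself passing 1. In both genotypes miR-145 was among the probes that passed miR-143. The negative main ratios of miR-145, against raw readings that did not go down, were the difference between the reference values of its ranks. Single steps between neighbouring ranks reached 0.24 on this stretch.

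**Figure D3:**
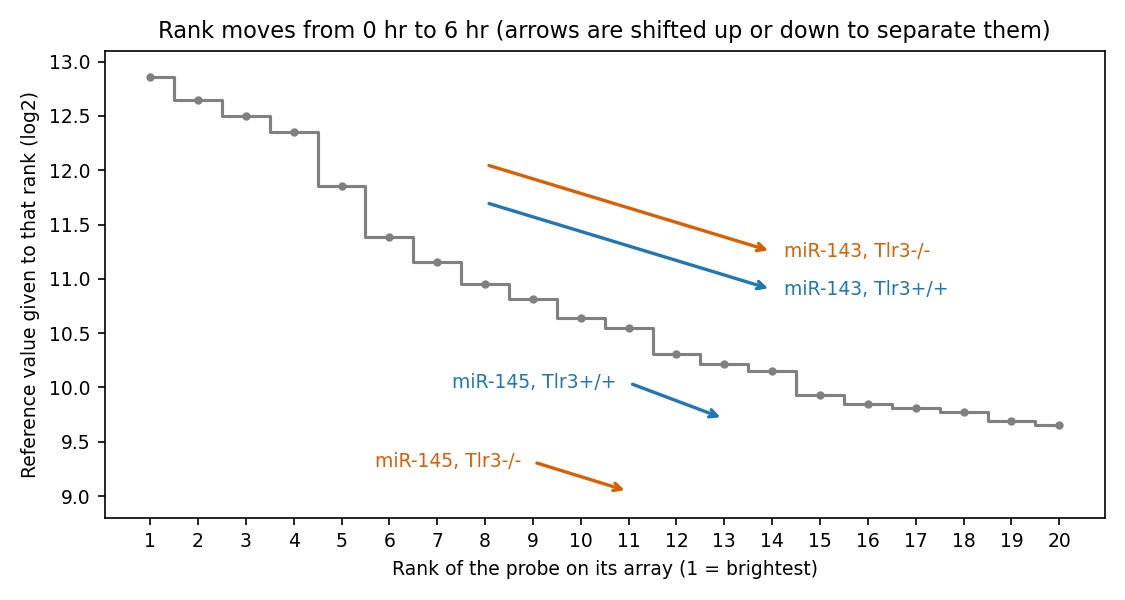
Reference value that quantile normalization gives to each rank (y axis, log2) for the 20 brightest ranks (x axis), with arrows from the rank at 0 hr to the rank at 6 hr for miR-143 and miR-145 in Tlr3+/+ (blue) and Tlr3-/- (orange), shifted up or down to separate them. Both miR-143 arrows run from rank 8 to rank 14, and the miR-145 arrows run from 11 to 13 and from 9 to 11.

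Set among the miRNAs well above background, most of them dimmer than the guide arms, miR-143 stood low in Tlr3-/- intestine under all 6 scalings, while its place in Tlr3+/+ intestine varied with the scaling. There were 104 mouse miRNAs above 3 times the threshold on both Tlr3+/+ arrays and 102 on both Tlr3-/- arrays. By main ratio, 1 of the 104 was lower than miR-143 in Tlr3+/+ and 0 of the 102 in Tlr3-/-. Under a scaling by 1 factor per array, which leaves the order of the ratios as it is, 40 of 104 were lower in Tlr3+/+ and 2 of 102 in Tlr3-/-. Cyclic loess left 10 and 1 lower, and the authors' values 48 and 3. Against the median of these miRNAs, miR-143 stood at -0.033 in Tlr3+/+ and -0.38 in Tlr3-/- under scaling by a factor, at -0.16 and -0.47 by cyclic loess, at -0.019 and -0.40 in the authors' values, and at -0.60 and -0.73 by main values. The corresponding values for miR-145 were 0.17 and -0.038 under scaling by a factor, with 78 of 104 and 43 of 102 miRNAs lower, and -0.13 and -0.20 by main values, with 24 and 9 lower.

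**Figure D4:**
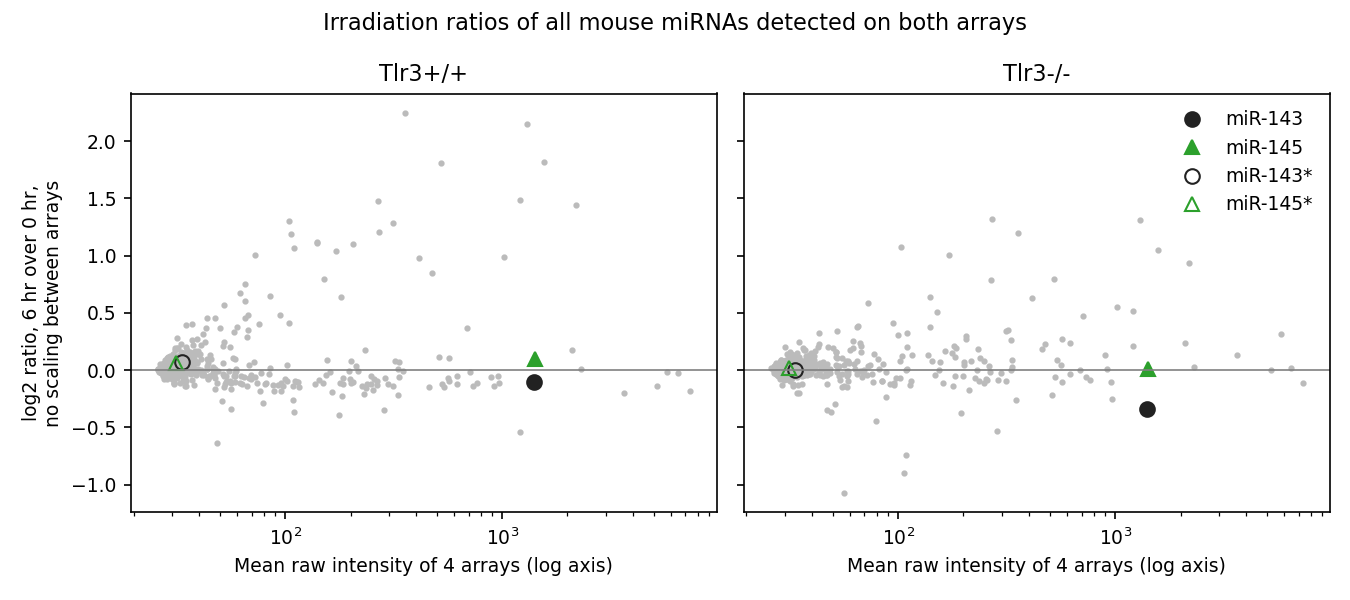
Log2 ratio of 6 hr over 0 hr with no scaling between arrays (y axis) against the mean raw intensity of the 4 arrays (x axis, log scale) for every mouse miRNA detected on both arrays (grey), with the 4 members marked, 1 panel per genotype. In Tlr3+/+ miR-143 lies at -0.11 within the band of bright miRNAs, in Tlr3-/- at -0.34 near its lower edge, and miR-145 lies at 0.096 and 0.0066.

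The change of miR-143 relative to miR-145 does not depend on a factor per array, since the factor cancels. It was -0.20 on the log2 scale in Tlr3+/+ intestine, less than the technical SD of 0.209, and -0.35 in Tlr3-/- intestine, which exceeds it. Cyclic loess gave -0.20 and -0.35 as well, the authors' normalized values gave -0.21 and -0.36, and quantile normalization gave -0.47 and -0.53. The sign was negative in both genotypes under all of these. For a description of what such pairs show elsewhere on the arrays, 36 other pairs of bright miRNAs with genes within 10 kb of each other were taken from the reference assembly. Their median absolute difference was 0.066 in Tlr3+/+ and 0.15 in Tlr3-/-. A difference at least as far from 0 as that of miR-143 and miR-145 was found in 1 of the 36 in Tlr3+/+ and in 4 of the 36 in Tlr3-/-. The pairs were compared with no scaling, in values that keep the constant (offset) added to each signal before log2. This offset shrinks the ratios of dimmer probes, and several miRNAs of the other pairs were dimmer than the guide arms. The difference of miR-143 and miR-145 may therefore look rarer than it would without the offset, which was not tested. Some of these pairs share a miRNA or have copies at several loci, and they were chosen after the values had been seen.

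A fit over all 4 arrays with terms for genotype and irradiation asked whether the irradiation change averaged over the genotypes differed from 0. It takes the change as shared by both genotypes and cannot ask whether they changed alike. With limma, 0 of 797 mouse miRNAs (0.0%) passed an adjusted p of 0.05, and 100 had an unadjusted p under 0.05. The averaged log2 change of miR-143 was -0.80 (moderated SE 0.017, adjusted p = 0.131), lower in both genotypes. Across the 11 alternatives its adjusted p ranged from 0.105 to 0.965 and its change from -0.83 to -0.17. The equal quantile values in both genotypes put the residual of miR-143 at 0, so its SE comes from the other miRNAs. For miR-145 the change was -0.30 (moderated SE 0.026, adjusted p = 0.222), with adjusted p from 0.211 to 0.992 and changes from -0.31 to 0.099 in the alternatives. The star arms had changes of 0.0072 for miR-143* (adjusted p = 0.903) and 0.016 for miR-145* (adjusted p = 0.772). The spread in this fit is the disagreement between the genotypes, with 1 residual degree of freedom, and not one between replicate pools.

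At both times miR-145 read higher in Tlr3-/- than in Tlr3+/+ intestine. Its main log2 ratio of Tlr3-/- over Tlr3+/+ was 0.27 at 0 hr and 0.33 at 6 hr, and the other scalings gave 0.059 to 0.32 at 0 hr and 0.086 to 0.26 at 6 hr, above 0 in all 5 at each time. The lowest of these, at 0 hr, came from spike scaling, which set the median of all 573 miRNAs to -0.25. Main values, median scaling and percentile scaling put miR-145 beyond the technical SD of 0.148 for a log2 ratio at both times. Cyclic loess (0.13 and 0.086) and the authors' values (0.12 and 0.11) left it within that SD at both times. Spike scaling left it within that SD at 0 hr (0.059) and level with it at 6 hr (0.148). The scalings reuse the same 4 spots and are not repeats. The main ratio of miR-143 was 0.0 at both times, because its rank was the same in both genotypes. In the other scalings miR-143 had -0.011 to 0.25 at 0 hr, above 0 in 4 of 5, and -0.13 to 0.043 at 6 hr, above 0 in 2 of 5. No member passed 1.5-fold between genotypes, against 3 of 656 miRNAs higher (0.457%) and 3 lower (0.457%) at 0 hr, and 0 of 645 higher (0.0%) and 3 lower (0.465%) at 6 hr.

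The irradiation ratio of Tlr3-/- less that of Tlr3+/+ was 0.0 for miR-143 and 0.058 for miR-145 by main values. In the other scalings it was -0.21 to -0.054 for miR-143, below 0 in all 5, and -0.065 to 0.090 for miR-145, below 0 in 4 of 5. With no scaling it was -0.23 for miR-143, slightly beyond the technical SD of 0.209, and its starting point was the high reading of 1652 in non-treated Tlr3-/- intestine. On the 6 hr arrays miR-143 read 1289 and 1303, nearly the same in both genotypes. No member had a difference past 1.5-fold, where 5 of 573 miRNAs (0.873%) were higher and 10 of 573 (1.75%) lower in Tlr3-/-. The difference could not be tested with 1 array per group.

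The star arms were dim on every array, just above the detection threshold and near the brightest negative control spot, which read 28.6 to 31.9. Above the mean of the blank spots, miR-143* stood at 4.56 to 6.00 times the mean of the negative control spots. The raw intensity of miR-143* was 31.1 at 0 hr and 34.2 at 6 hr in Tlr3+/+ mice, and 32.9 at 0 hr and 35.3 at 6 hr in Tlr3-/- mice. That of miR-145* was 29.8, 32.2, 30.5 and 33.6 on the same arrays. The thresholds of these were 25.8, 26.1, 26.5 and 29.2, so both star arms were detected on all 4 arrays, at 1.15 to 1.31 times the threshold. Of 24 negative control spots, 1 was brighter than either star arm in Tlr3+/+ at 0 hr and 0 were on the other 3 arrays, and 0 to 4 of the 1818 blank spots were brighter.

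Above the mean of the blank spots, miR-143* stood at 6.57 in Tlr3+/+ at 0 hr and 9.50 at 6 hr, and at 8.02 and 7.93 in Tlr3-/-. For miR-145* these were 5.27 and 7.52 in Tlr3+/+ and 5.60 and 6.22 in Tlr3-/-. Both star arms were thus brighter at 6 hr in Tlr3+/+, while in Tlr3-/- their readings at 0 hr and 6 hr differed by less than the SD of the blank spots, which was 0.624 to 0.928 on the 4 arrays. This SD leaves out 5% of the blank spots at each end, so it and the SEs made from it understate the spread of all blank spots. Before scaling the log2 ratio in Tlr3+/+ was 0.53 for miR-143* (SE 0.17 from the blank spots) and 0.51 for miR-145* (SE 0.22). In Tlr3-/- these were -0.015 (SE 0.22) and 0.15 (SE 0.30).

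The negative control spots, themselves close to the blank spots, also read higher at 6 hr. Their mean above the blank spots went from 1.41 to 2.08 in Tlr3+/+, a log2 ratio of 0.56, and from 1.34 to 1.47 in Tlr3-/-, a log2 ratio of 0.14. Their part in the star-arm values was not tested. In main values, where the offset of 50 added before log2 shrinks ratios of dim probes, the star arms had irradiation ratios of 0.031 (miR-143*) and 0.029 (miR-145*) in Tlr3+/+ and of -0.016 and 0.0030 in Tlr3-/-. Probes this dim do not let a change in arm usage be read.

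**Figure D5:**
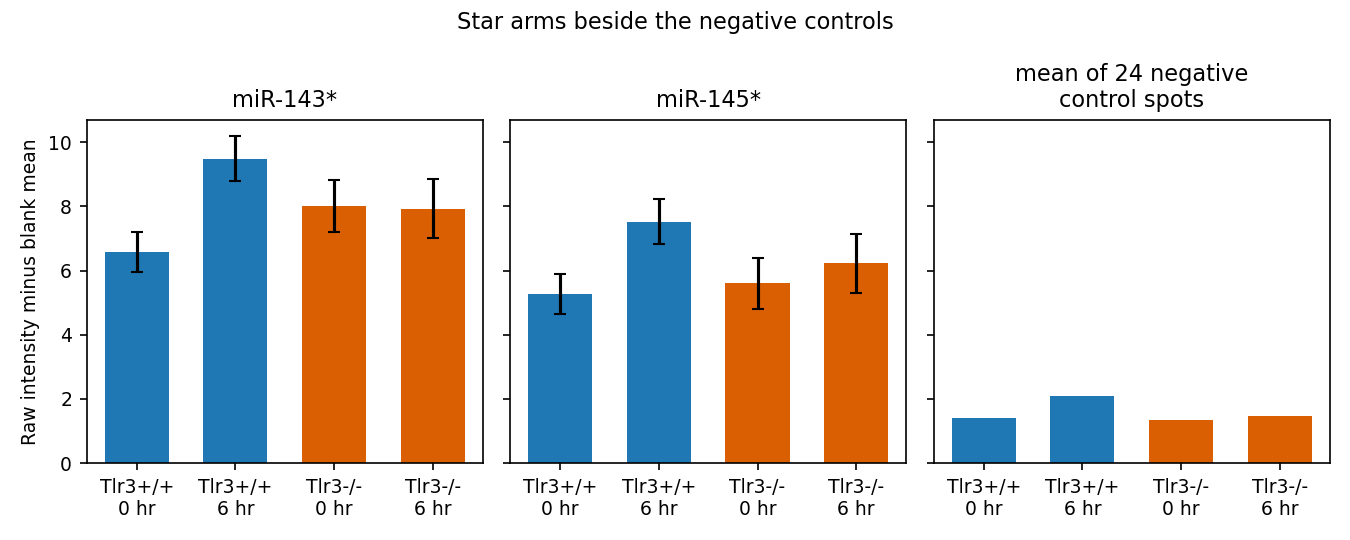
Raw intensity minus the mean of the blank spots (y axis, from 0) for miR-143*, miR-145* and the mean of the 24 negative control spots on the 4 arrays, with error bars of 1 SD of the blank spots (5% left out at each end) for the star arms, blue for Tlr3+/+ and orange for Tlr3-/-. In Tlr3+/+ all 3 panels are higher at 6 hr than at 0 hr, miR-143* going from 6.57 to 9.50, miR-145* from 5.27 to 7.52 and the negative controls from 1.41 to 2.08.

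The intestine was sampled whole, and fewer smooth muscle cells and less miRNA per cell cannot be told apart. The array holds no smooth muscle protein genes against which the label of the cluster could be checked. Of the muscle miRNAs apart from the cluster, miR-133a read 31.2 to 41.9 and miR-133b 41.2 to 46.6, and both arms of miR-490 read 24.6 to 28.4. Of these arms, miR-490-3p was under the threshold on every array, and miR-490-5p was above it only in Tlr3+/+ at 0 hr. The summed signal of the 4 cluster probes above the blank spots was 2586 and 2577 in Tlr3+/+ at 0 hr and 6 hr, and 3158 and 2814 in Tlr3-/-, and nearly all of it was that of the guide arms.

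Other miRNAs of mesenchyme and stroma gave a list of 16 probes, 14 of them compared in each genotype. By main values 11 of 14 were below 0 in Tlr3+/+, with a median of -0.099 (all miRNAs -0.0098), and 11 of 14 in Tlr3-/-, with a median of -0.079 (all miRNAs -0.0014). In Tlr3+/+ the lowest was miR-140*, from the hairpin of a miRNA known from cartilage, at -0.26, and the highest was miR-195, of the miR-15/16 seed family, at 0.99. In Tlr3-/- the lowest was miR-140 at -0.36 and the highest miR-125b-5p, a miRNA widespread in mesenchyme, at 0.15. With spike scaling 2 of the 14 were below 0 in Tlr3-/-. The raw signal of this list summed to 642 and 692 above the blank spots in Tlr3+/+ at 0 hr and 6 hr, and to 799 and 776 in Tlr3-/-. Endothelial miR-126-3p stood at -0.16 and miR-126-5p at -0.18 in Tlr3+/+, and at -0.18 and 0.10 in Tlr3-/-, and their sum was 329 to 335 on the 4 arrays.

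Markers of other cell types also read differently at 6 hr. The 12 epithelial miRNAs, all detected on every array, summed to 16990 and 16485 in Tlr3+/+ at 0 hr and 6 hr and to 18059 and 19692 in Tlr3-/-. Of these, 10 were below 0 in Tlr3+/+ by main values (median -0.31, from miR-192 at -0.57 to miR-215 at 0.0) and 6 in Tlr3-/- (median -0.012, from miR-192 at -0.43 to miR-194 at 0.22), where spike scaling left 0 of the 12 below 0. The raw signal of miR-192 did not go down, at 2224 and 2233 in Tlr3+/+ at 0 hr and 6 hr and 2385 and 2430 in Tlr3-/-. Its negative main ratios were differences between the reference values of its ranks. The 7 leukocyte miRNAs were all below 0 in both genotypes by main values, with medians of -0.22 and -0.16, but 4 of 7 in Tlr3-/- with spike scaling, and their sum went from 306 to 244 in Tlr3+/+ and from 403 to 285 in Tlr3-/-. In each genotype the lowest of them was miR-142-5p, made in blood cells, at -0.37 and -0.78, and the highest were miR-155 at -0.057 in Tlr3+/+ and miR-342-3p at -0.029 in Tlr3-/-. The 3 red cell miRNAs summed to 33.8 and 150.1 in Tlr3+/+ and to 163 and 90.4 in Tlr3-/-, opposite ways in the 2 genotypes. Of these, miR-451 stood at 1.11 in Tlr3+/+ and -0.94 in Tlr3-/-, and miR-486* at 0.50 and 0.30. The part of these shifts in the values of miR-143 and miR-145 was not tested.

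Of the miRNAs linked to p53, the list outside the cluster held 9 probes. In Tlr3+/+ 7 of 8 compared were below 0, with a median of -0.040, from miR-16, one of the miRNAs whose cutting p53 aids, at -0.53 to miR-34c*, the passenger arm of a p53 target, at 0.026. In Tlr3-/- 6 of 7 were below 0, with a median of -0.0088, from miR-107 at -0.16 to miR-34a at 0.13, but 0 of 7 with spike scaling. The raw signal of miR-16 was 460 and 414 in Tlr3+/+ at 0 hr and 6 hr and 448 and 516 in Tlr3-/-, so it was lower at 6 hr in one genotype and higher in the other. Of miR-34a it was 34.2 and 34.7 in Tlr3+/+ and 35.1 and 45.2 in Tlr3-/-. Striated muscle miRNAs gave 2 compared in each genotype, miR-133a at -0.061 and miR-133b at 0.0 in Tlr3+/+, and 0.17 and -0.0096 in Tlr3-/-. Neuron miRNAs were dim, with 2 compared in Tlr3+/+, from miR-9 at -0.023 to miR-138 at 0.058, and 3 in Tlr3-/-, from miR-138 at -0.15 to miR-9* at -0.029.

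The miRNAs most like each guide arm were sought among the 573 detected on all arrays, by the Euclidean distance between log2 profiles over the 4 arrays, each centred on its own mean. By main values miR-143 was closest to miR-5099 (distance 0.26), miR-709 (0.29), miR-192 (0.31), miR-135a-2* (0.33) and miR-142-5p (0.34), and miR-145 came 24th of 572 with 0.59. The profile of miR-145 was closest to miR-29a (0.041), let-7g (0.10), miR-146a (0.10), miR-1195 (0.12) and miR-150 (0.13), with miR-143 in place 521 of 572. With scaling to the median, 1 of the 5 nearest to miR-143, miR-709, was still among its 5 nearest and 0 of those of miR-145, and the guide arms came in places 357 (miR-145 in the order of miR-143) and 416 (miR-143 in that of miR-145). In both settings the guide arms of this cluster were thus not each other's nearest profile. By main values both orders share the distance of 0.59, so places 24 and 521 depend on the other candidates and not on the pair alone. The distance grows with the size of a change, and in main values the offset shrinks the ratios of dim probes. A far place is therefore not a measure of unlike direction. With 4 points per profile these places and distances are a description only.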

How the data were processed

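Per the labels' protocols, small intestinal RNA was labelled with the dye Hy5 (a miRCURY LNA kit of Exiqon), and each array was read in 1 colour. The sources used here do not give the scanner. For each of 3136 spots per array the deposited columns hold, per the file headers, a raw intensity, the intensity after background subtraction and the intensity after global normalization. The authors' background-subtracted intensity equals the raw intensity minus the blank mean, with 5% of the 1818 blank spots left out at each end. Their normalized intensity is the background-subtracted intensity times 1 factor per array. The authors' filled cells follow a threshold at that blank mean plus 2 SD of the blank spots kept, with 0 exceptions, and the same threshold defined detection here. The deposited value table repeats the normalized intensity.

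Main values were made from the raw intensity by normexp with the blank spots as negative controls and an offset of 50 (nec, limma 3.58.1, R 4.3.3), quantile normalization over all miRNA probes, and log2. The other scalings were to the median or the 75th percentile of probes detected on all arrays, cyclic loess, spike controls, and the authors' normalized values. Further alternatives were an offset of 16, raw signals without correction, blank subtraction, other detection filters, and, chosen after seeing the data, no scaling. Ratios of 2 arrays have no test. The fit with genotype and irradiation used lmFit and eBayes with Benjamini-Hochberg adjustment over 797 mouse miRNAs detected on at least 2 arrays, and was tested on simulated data. Named miRNAs are the members, the extremes of each list, the 5 nearest profiles, and, chosen after their values were seen, miR-133a, miR-133b, miR-490 and miR-126. List members without a probe of their own, such as miR-199a-3p, were left out. Members and lists were chosen with earlier results of these data known. Gene names and neighbours came from RefSeq (GRCm38.p6).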

Additional observations from a re-analysis of the deposited data

Results flagged for a closer look

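The irradiation ratio of miR-143* was above 0 in Tlr3+/+ intestine, at a log2 ratio of 0.031, and below 0 in Tlr3-/- intestine, at -0.016, opposite directions in the 2 genotypes with 1 array per group. The difference was not tested. The offset of 50 shrinks these values: after subtraction of the blank mean, with no scaling, the ratios were 0.53 (SE 0.17 from the blank spots) and -0.015 (SE 0.22), and in the authors' values 0.29 and -0.17. The value of -0.015 lies within its SE of 0. Spike scaling gave 0.032 in Tlr3+/+ and 0.13 in Tlr3-/-, both above 0, while the other 4 of the 5 scalings kept the ratio in Tlr3-/- below 0. The negative control spots had log2 ratios of 0.56 in Tlr3+/+ and 0.14 in Tlr3-/-, so opposite directions are not established.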

How the results depend on the processing

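Values are log2 ratios in the order median scaling, 75th percentile scaling, cyclic loess, spike scaling, no scaling and the authors' values where 6 are given. Of 242 alternative values of the members, 182 kept the direction of a called value and lay within the technical SD of the main value, or kept their side of the threshold in the limma fit. The irradiation ratio of miR-143 was -0.14, -0.18, -0.30, -0.15, -0.11 and -0.35 in Tlr3+/+ and -0.35, -0.37, -0.49, -0.20, -0.34 and -0.51 in Tlr3-/-, against -0.80 in each. That of miR-145 was 0.057, 0.023, -0.10, 0.054, 0.096 and -0.14 in Tlr3+/+ against -0.33, and in Tlr3-/- it was -0.0088 and -0.022 by median and percentile scaling, 0.14 by spike scaling and 0.0066 with no scaling against -0.27. The difference between miR-143 and miR-145 in Tlr3+/+ was -0.20, -0.20, -0.20, -0.20, -0.20 and -0.21 against -0.47. Ranks set the quantile values, as described above. The averaged change of miR-145 (-0.30) turned to 0.024 by median scaling, 0.00059 by percentile scaling, 0.099 by spike scaling and 0.051 with no scaling, and percentile scaling turned those of miR-143* (0.0072) to -0.015 and of miR-145* (0.016) to -0.014. Between genotypes at 0 hr, miR-143 was at 0.25, 0.22 and 0.25 by median, percentile and no scaling, and miR-145 at 0.059 by spike scaling and 0.12 in the authors' values. At 6 hr miR-145 was at 0.086 by cyclic loess, 0.15 by spike scaling and 0.11 in the authors' values. The difference of the irradiation ratios of miR-143 was -0.21 by median scaling and -0.23 with no scaling.

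For the star arms, the authors' values and blank subtraction gave irradiation ratios in Tlr3+/+ of 0.29 and 0.23 for miR-143* and 0.28 and 0.26 for miR-145*. In Tlr3-/- miR-143* was at 0.13 by spike scaling and -0.17 in the authors' values, and miR-145* at 0.15 by spike scaling. Between genotypes at 0 hr miR-143* was at -0.22 by spike scaling and 0.29 by blank subtraction, and miR-145* at -0.25 by spike scaling. At 6 hr the authors' values gave -0.39 for miR-143* and -0.40 for miR-145*. The differences of the irradiation ratios were -0.46 and -0.34 for miR-143* and -0.28 and -0.24 for miR-145* in the authors' values and by blank subtraction. Where no cause is named, the cause was not tested. Counts of miRNAs at least 1.5-fold lower with irradiation were 3 in Tlr3+/+ and 6 in Tlr3-/- by main values, 1 and 3 by median, spike or no scaling, 0 and 1 at 2-fold, 2 and 3 above 3 times the threshold, 8 and 10 with an offset of 16, 104 and 53 in the authors' values, and 89 and 61 by blank subtraction, which do not damp dim probes. The higher side had 20 and 9 by main values, 12 and 3 at 2-fold, 25 and 16 by spike scaling, 32 and 14 with an offset of 16, 108 and 82 in the authors' values, and 104 and 85 by blank subtraction. Between genotypes the main counts of 3 higher and 3 lower at 0 hr, and 0 and 3 at 6 hr, had ranges over the alternatives of 1 to 58, 0 to 89, 0 to 75 and 0 to 107. In the limma fit 0 of 797 miRNAs passed by main values, 35 by spike scaling, 3 by percentile scaling and 1 each by median scaling and cyclic loess, among them 0 of the 4 members. The star arms lie near background, where the blank spots limit precision. No paired analysis was possible because each group had 1 array.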
